A study of Mus musculus with 6 samples.

Results

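The mouse genome holds 6 GATA factor genes, Gata1 to Gata6, and 2 genes for their FOG cofactors, Zfpm1 (FOG1) and Zfpm2 (FOG2). These 8 genes were taken by symbol from the 24062 genes counted in each RNA sequencing library, as whole families and not by their measured values. All 8 had counts in at least 4 of the 6 libraries, and 7 of the 8 passed the filter on low counts that precedes the test between the sorted fractions. Gata4 was the member that did not pass.

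GATA factors are transcription factors with a pair of zinc fingers, one of which binds DNA at the letters GATA while the other meets partner proteins. GATA1, GATA2 and GATA3 are known mainly from blood, where GATA2 is needed for stem and progenitor cells, GATA1 for red cells and megakaryocytes and GATA3 for T cells, while GATA4, GATA5 and GATA6 are known from heart, gut and gonad. FOG proteins do not bind DNA at GATA sites themselves but bind the amino-terminal finger of a GATA factor and bring corepressors to it, and in the red cell lineage GATA1 with FOG1 takes the place of GATA2 at shared sites.

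The cells were sorted from the aorta-gonad-mesonephros region (AGM) of E10.5 embryos, the tissue in which the first hematopoietic stem cells emerge from aortic endothelium. All embryos carried 1 allele of the Gata2Venus reporter (strain C57BL/6JOlaHsd), in which the fluorescent protein Venus is read from an IRES in the untranslated end of the Gata2 transcript. CD31+ckit+ cells, which include the hematopoietic clusters of the aorta, were divided by their Venus signal into a Vmed and a Vhigh fraction, and 3 libraries of each fraction were sequenced, numbered 1 to 3 in both. No Venus-negative cells and no embryos without the reporter were analysed here, so the comparison is between 2 levels of the same reporter. Nothing in the sample labels says which embryos a library came from, while the study's legends speak of independent experiments, so that p values measure the spread between these libraries.

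The libraries held between 8296831 and 12035206 counts on genes, and 3 counts, taken as the smallest number that shows a transcript, corresponded to between 0.249 and 0.362 CPM (the count divided by the gene total of the library, times 1000000). Amplified reads without molecular identifiers were counted, so intervals and limits cover counting error only. Libraries with the same number resembled each other in how reads were assigned. Alignments outside annotated genes made up 18 and 16.5% of all in the 2 libraries of replicate 1, 28.1 and 35.6% in replicate 2 and 8 and 7.09% in replicate 3 (Vmed, then Vhigh). Vhigh replicate 1 had the fewest genes with a count, 10427, and Vhigh replicate 2 the most, 18460. All 13 endothelial markers on a list of such genes had 3 or more counts in every library but Vhigh replicate 1, where 10 did, and between 10 and 12 of 12 hematopoietic markers did in each library. Endothelial and hematopoietic genes were thus both counted, which does not show separate cells of each type. Genes of mesenchyme and macrophages were counted as well.

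The study discusses Notch1 and Hes1 as regulators of Gata2. RBPJ is known as the DNA-binding partner of Notch and GATA factors are known to act on their own genes, so the start regions of the members are shown with the letters these proteins read. RefSeq promoter windows of GRCm38.p6, here the 250 bases before an annotated start, were matched by symbol for Gata1, Gata2 (2 starts), Gata3, Gata5 and Zfpm1. Gata4, Gata6 and Zfpm2 had no entry. On both strands, the GATA motif was searched as AGATAA or AGATAG or TGATAA or TGATAG, the RBPJ motif as TGGGAA and the Hes N-box as CACNAG. These motifs were held by 26.5, 21.6 and 36.7% of 32851 windows of the same length. None of the 6 windows held the GATA motif, and no match overlapped another. The outer Gata2 start (chr6:88193641-88193890, plus strand) held 1 N-box, 12 bases before the start, the inner Gata2 start (chr6:88198414-88198663, plus strand) held none, and the Gata1 window (chrX:7967911-7968160, minus strand) and the Gata3 window (chr2:9878601-9878850, minus strand) held 2 each. The Zfpm1 window (chr8:122281891-122282140, plus strand) held the RBPJ letters at 2 places and was the single one that did, while the Gata5 window held none of the 3 motifs. The 3 factors most transcribed in these cells and the FOG gene with an entry are given 5′ to 3′, with motif matches in capitals:
Gata2 outer start: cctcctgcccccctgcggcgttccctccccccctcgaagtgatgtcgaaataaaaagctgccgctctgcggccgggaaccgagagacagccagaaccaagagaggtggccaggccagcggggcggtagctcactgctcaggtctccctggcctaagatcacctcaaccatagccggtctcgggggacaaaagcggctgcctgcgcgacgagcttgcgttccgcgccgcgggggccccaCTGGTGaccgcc
Gata2 inner start: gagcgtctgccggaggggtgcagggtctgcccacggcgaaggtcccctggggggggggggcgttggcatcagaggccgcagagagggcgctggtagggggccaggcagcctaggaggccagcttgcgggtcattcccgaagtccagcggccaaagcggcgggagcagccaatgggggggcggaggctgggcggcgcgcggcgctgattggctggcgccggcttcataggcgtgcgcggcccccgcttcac
Gata1: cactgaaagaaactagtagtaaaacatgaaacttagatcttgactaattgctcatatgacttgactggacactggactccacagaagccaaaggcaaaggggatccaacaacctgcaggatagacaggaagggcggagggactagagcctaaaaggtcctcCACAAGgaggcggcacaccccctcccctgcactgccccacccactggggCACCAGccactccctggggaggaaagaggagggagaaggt
Gata3: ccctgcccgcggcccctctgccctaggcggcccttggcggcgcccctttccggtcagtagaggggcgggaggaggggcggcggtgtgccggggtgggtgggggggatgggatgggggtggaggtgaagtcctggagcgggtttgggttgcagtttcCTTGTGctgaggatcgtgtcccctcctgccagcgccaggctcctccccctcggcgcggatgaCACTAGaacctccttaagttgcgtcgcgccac
Zfpm1: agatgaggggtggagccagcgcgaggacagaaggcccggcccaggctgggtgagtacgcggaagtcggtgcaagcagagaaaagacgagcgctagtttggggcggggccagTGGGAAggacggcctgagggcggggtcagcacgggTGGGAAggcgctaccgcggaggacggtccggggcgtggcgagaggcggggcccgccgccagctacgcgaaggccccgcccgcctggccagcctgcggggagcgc
A match of letters is a description of the window and not a measured binding site.

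To compare levels between genes, CPM were divided by the length of all exons of a gene in kilobases (RPKM, with gene models of GENCODE for GRCm38). Gata1 was first in this order (mean RPKM 16.8 over the 6 libraries), followed by Gata2 (12.7), Gata3 (9.96) and Gata6 (4.17). Zfpm2 (mean RPKM 1.97) and Zfpm1 (1.2) came next, and Gata5 (0.654) and Gata4 (0.497) were last. The blood GATA genes were therefore accompanied by Gata6 and by little FOG1 transcript. The order of the means held with the longest transcript in place of all exons. Most neighbours in it did not differ beyond their spread. Gata1 exceeded Gata2 by 0.39 ± 0.99 (SD over 6 libraries) on the log2 scale and in 4 of 6 libraries, Gata2 exceeded Gata3 by 0.58 ± 2.14 in 3 of 6, and Zfpm2 exceeded Zfpm1 by 0.37 ± 1.37 in 5 of 6. The step from Gata3 to Gata6 was 1.42 ± 1.13 on the same scale and was present in 5 of 6 libraries.

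The leading factor differed between libraries. Gata1 had the highest RPKM of the 8 genes in Vmed replicates 2 and 3 and Vhigh replicate 2, Gata3 in both libraries of replicate 1, and Gata2 in Vhigh replicate 3. With the longest transcript as the length, Gata2 took the lead from Gata1 in Vmed replicate 3. As a share of the summed RPKM of the 6 GATA genes, Gata2 took 21.3, 13.1 and 28.4% in Vmed replicates 1, 2 and 3 and 23.4, 24.1 and 59.4% in the Vhigh replicates. Gata1 took 13.7, 46 and 33.2% in Vmed and 30.4, 55.9 and 35.6% in Vhigh. For both genes the fractions overlapped. Shares of one sum depend on each other, and Gata2 carries the reporter used in the sort. In replicate 1 the Gata2 share was higher in Vhigh although its RPKM was lower (9.33 in Vmed and 7.26 in Vhigh). Gata6 took 11.5, 20.3 and 12.3% in Vmed and 4.56, 7.03 and 0.49% in Vhigh, without overlap, and Gata3 took 47, 19 and 21.8% in Vmed and 41.6, 12.3 and 2.07% in Vhigh, with overlap. The summed RPKM itself did not separate the fractions (43.8, 41.5 and 44.6 in Vmed, 31, 63.4 and 44.3 in Vhigh).

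**Figure D1:**
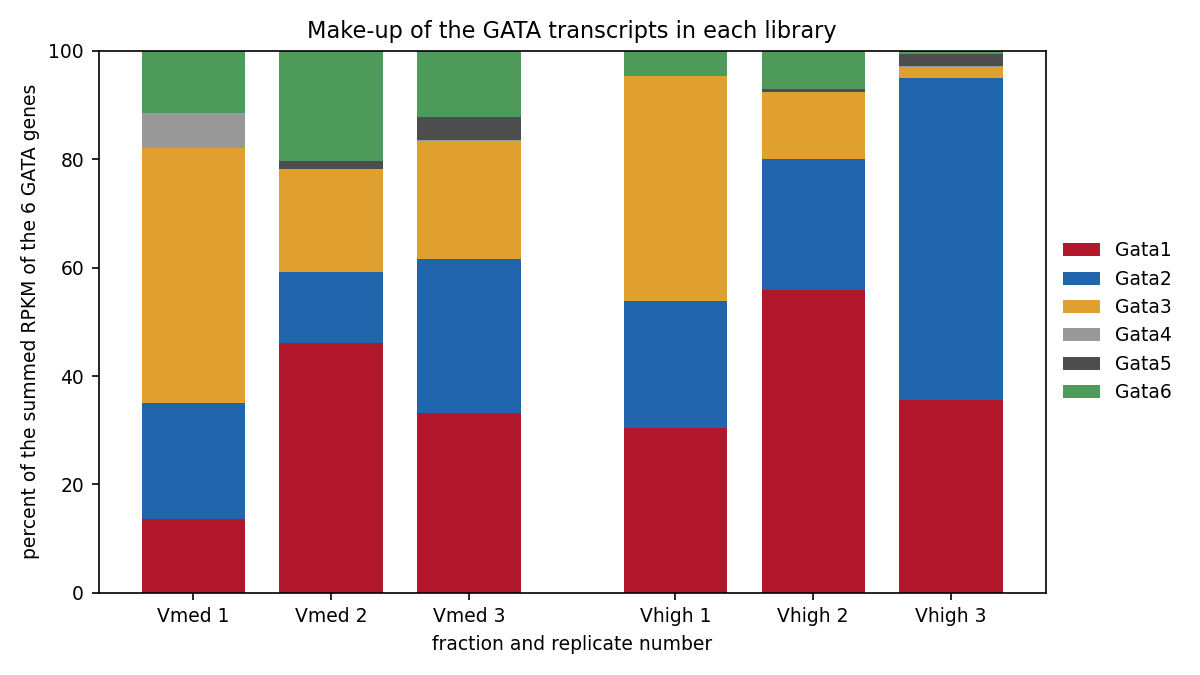
Share of each GATA gene in the summed RPKM of Gata1 to Gata6, in percent, for each library of the Vmed and Vhigh fractions by replicate number. Gata2 has its largest share, 59.4%, in Vhigh replicate 3, Gata3 has its largest, 47%, in Vmed replicate 1, and the Gata6 share is smaller in each Vhigh library than in any Vmed library.

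The fractions were then compared gene by gene. Of 12688 genes that passed the filter, 0% reached an adjusted p under 0.05 in edgeR's quasi-likelihood test, and 0 of the 7 members tested did. At an unadjusted p under 0.05, 2.04% of all genes and 0 of the 7 members passed. Neither edgeR's likelihood ratio test, which called 21 genes, nor DESeq2, which called 51, called a member. Each of the 7 had an adjusted p of 0.9998 in the quasi-likelihood test. This does not show that the fractions were alike, because the standard errors of the log2 fold changes ran from 0.73 for Gata2 to 2.51 for Gata5. The exact permutation test of 3 libraries against 3 cannot give a p below 0.1.

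**Figure D2:**
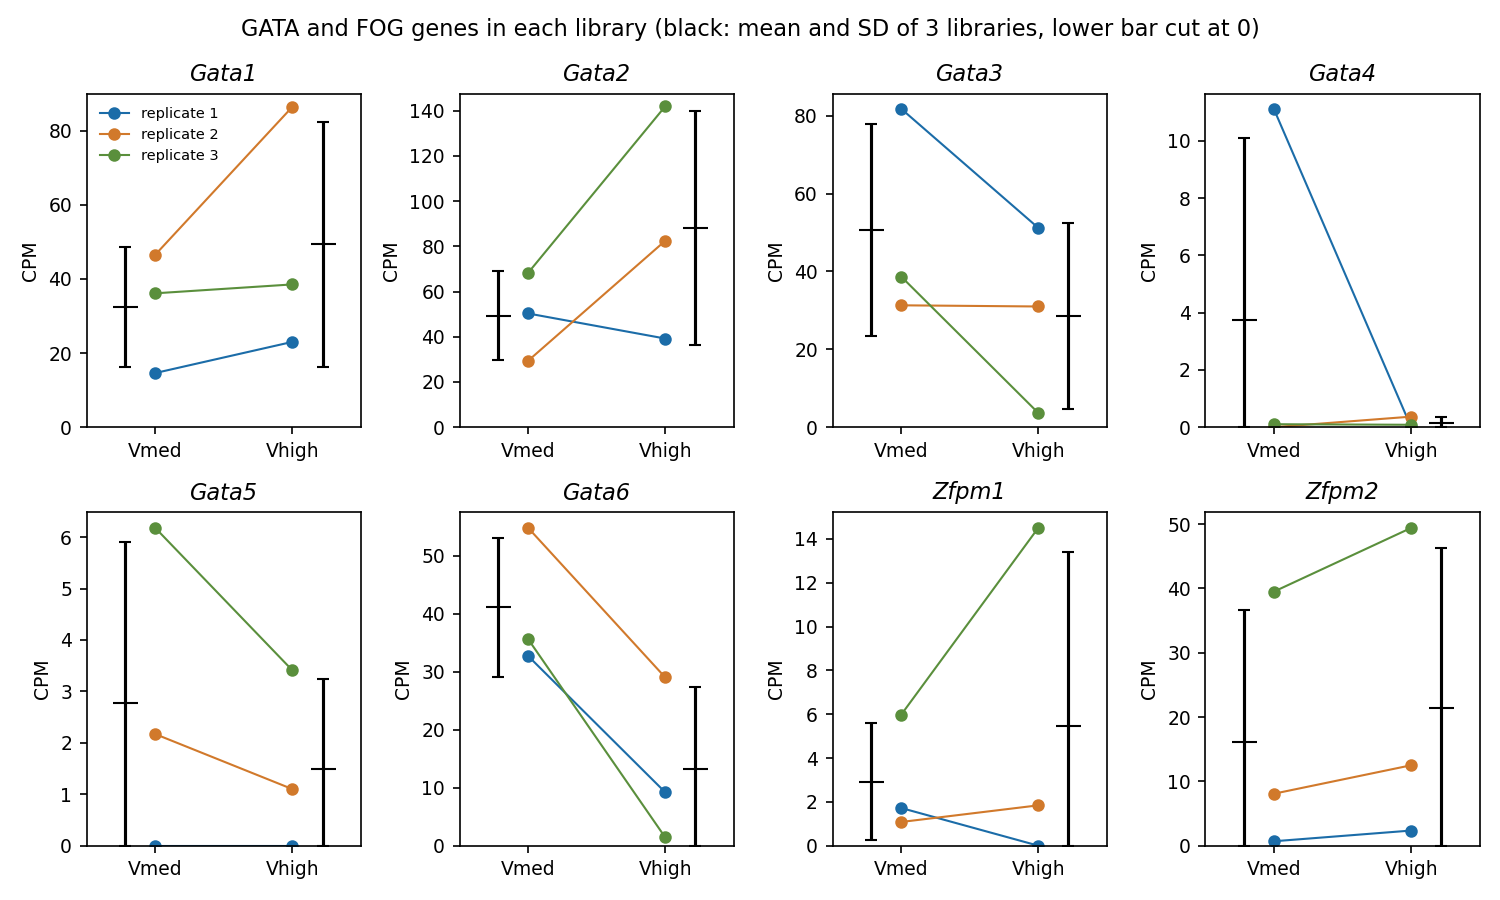
Expression of each gene in CPM in the 3 Vmed and 3 Vhigh libraries, with lines joining libraries of the same replicate number and black bars for the mean and SD of 3 libraries. Gata6 is the single gene whose Vhigh libraries (1.41 to 29 CPM) all lie below its Vmed libraries (32.7 to 54.8 CPM), while Gata5, Zfpm1 and Zfpm2 are highest in replicate 3 of both fractions.

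Gata2, the gene that carries the reporter, is a check of the sort and not an independent result. It lies on chromosome 6 from 88193891 to 88207032 of GRCm38, on the plus strand. Its expression was 50.3, 29.4 and 68.3 CPM in Vmed replicates 1, 2 and 3 and 39.2, 82.5 and 142 CPM in the Vhigh replicates. The 2 highest libraries were Vhigh, but the fractions overlapped, because Vhigh replicate 1 lay below 2 of the Vmed libraries. The gap in replicate 1 was more than counting error, as the 95% Poisson intervals were 45.7 to 55.3 CPM in Vmed and 35.5 to 43.2 CPM in Vhigh. With means of 49.4 ± 19.5 and 88 ± 51.7 CPM (SD, n = 3), the log2 fold change of Vhigh over Vmed was 0.78 (standard error 0.73). Without replicate 1 of both fractions, a comparison chosen after the data were seen, it was 1.14 (standard error 0.68, adjusted p = 1 in edgeR), and without Vhigh replicate 3 it was 0.24.

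Gata1, which drives red cell and megakaryocyte genes, lies on chromosome X from 7959260 to 7978071 (minus strand). It had 14.6, 46.5 and 36.1 CPM in the Vmed replicates and 23, 86.4 and 38.5 CPM in the Vhigh replicates. Replicate 2 was highest and replicate 1 lowest in both fractions, and the fractions overlapped. Vhigh was higher in 3 of 3 same-numbered pairs, by 0.63, 0.89 and 0.09 on the log2 scale of CPM + 0.5, as was the case for 15.2% of all tested genes. Over the fractions the log2 fold change was 0.52 (standard error 0.92), with means of 32.4 ± 16.3 and 49.3 ± 33 CPM (SD, n = 3). The fit with a replicate block gave 0.51 (standard error 0.74), and leaving out Vhigh replicate 2 alone, which unbalances the replicates, gave -0.02.

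Gata3, known in the AGM region from sympathetic neurons and nephric duct as well as from hematopoietic cells, lies on chromosome 2 from 9857078 to 9890034 (minus strand). Its expression was 81.8, 31.3 and 38.7 CPM in Vmed and 51.2, 31 and 3.66 CPM in Vhigh. The 2 libraries of replicate 1 were the highest of all 6, Vhigh replicate 3 stood far below the rest, and the fractions overlapped. All 3 pairs were lower in Vhigh, with log2 differences of -0.67, -0.01 and -3.24, against 15.4% of all tested genes with 3 lower pairs, and the pair of replicate 2 differed by less than the counting intervals. The fitted log2 fold change of -0.84 (standard error 1.07) was -1.31 with a replicate block (standard error 0.92), -0.30 without Vhigh replicate 3 and -0.27 without Vmed replicate 1. The exons of Gata3 share 77 bases with 9230102O04Rik and 155 with an antisense transcript, so a small part of its reads could belong to either.

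Gata6 had the largest fitted difference of the 7 members tested. This factor is known from endoderm, heart and vascular smooth muscle. The Vmed libraries held 32.7, 54.8 and 35.6 CPM and the Vhigh libraries 9.19, 29 and 1.41 CPM. Every Vhigh library was below every Vmed library, a pattern found in 4.71% of all tested genes, and in the opposite direction in 4.15%. Each pair was lower in Vhigh, with log2 differences of -1.78, -0.91 and -4.24, again beside 15.4% of all tested genes. The means were 41.1 ± 12 CPM in Vmed and 13.2 ± 14.2 CPM in Vhigh (SD, n = 3), and the log2 fold change was -1.75 (standard error 1.20). The exact two-sided permutation test gave p = 0.1, the smallest it can give. The difference ranged from -2.80 to -1.16 when single libraries were left out, and with the replicate number as a block it was -2.40 (standard error 1.12, adjusted p = 0.99 in edgeR). Gata6 shares 93 exon bases with a transcript of the opposite strand, 1010001N08Rik.

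Gata4 and Gata5, which act with Gata6 in heart and gut, were near the limit of what the libraries show. Of the 103 counts of Gata4, 97 came from Vmed replicate 1 (11.1 CPM). The other libraries had between 0 and 4 counts, so Gata4 was detected clearly in 1 library. A count of 0, as in Vmed replicate 2 and Vhigh replicate 1, allows up to 0.445 and 0.346 CPM by the exact Poisson interval. Gata5 was at 0, 2.17 and 6.18 CPM in Vmed and at 0, 1.1 and 3.41 CPM in Vhigh. It was undetected in both libraries of replicate 1, which allows up to 0.422 and 0.346 CPM by the same interval, and highest in both of replicate 3. Its log2 fold change was -0.92 (standard error 2.51), and 258 of its exon bases are shared with the antisense gene Gata5os.

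Zfpm1, the FOG cofactor needed with GATA1 in red cells and megakaryocytes, lies on chromosome 8 from 122282141 to 122337251 (plus strand). It had 1.72, 1.08 and 5.97 CPM in Vmed and 0, 1.84 and 14.5 CPM in Vhigh, so the highest library in each fraction was replicate 3. Vhigh replicate 1 had no count, which allows up to 0.346 CPM by the exact Poisson interval, although it was among the deeper libraries. The direction between fractions depended on how libraries were weighed. The fitted log2 fold change was 0.87 (standard error 2.29), the difference of mean log2(CPM + 0.5) was -0.12 and the fit with a replicate block gave -0.53 (standard error 2.29).

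Zfpm2, the cofactor of GATA4 in heart and gonad, lies on chromosome 15 from 40655035 to 41104592 (plus strand). Its expression was 0.686, 8.08 and 39.5 CPM in Vmed and 2.35, 12.5 and 49.4 CPM in Vhigh. Both fractions showed the same steps from replicate to replicate, with a 72-fold span between the lowest and the highest library. Each pair was higher in Vhigh (1.26, 0.60 and 0.32 on the log2 scale) beside 15.2% of all tested genes, and the log2 fold change was 0.38 (standard error 1.63). With the replicate number as a block it was 0.84 (standard error 1.16, adjusted p = 0.99 in edgeR). Leaving out 1 library of a pair gave -1.18 without Vhigh replicate 3 and -0.18 without Vmed replicate 1.

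**Figure D3:**
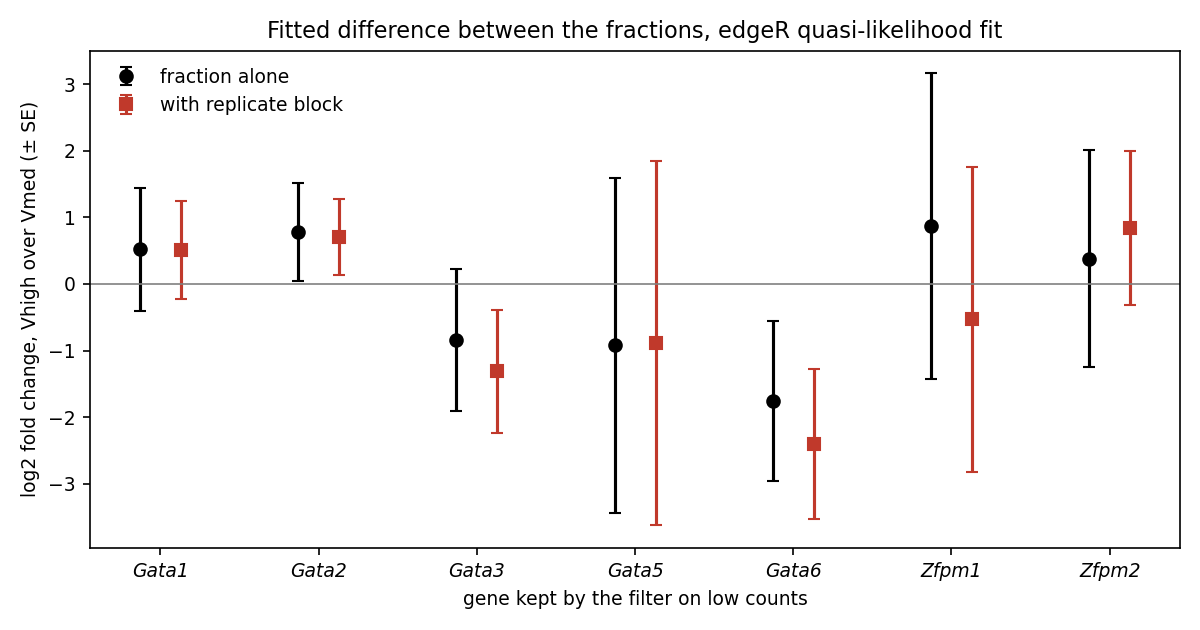
Fitted log2 fold change of Vhigh over Vmed with its standard error for the 7 genes that passed the filter, with the fraction as the single term (black circles) and with the replicate number added as a block (red squares). Gata6 is the lowest in both fits (-1.75 and -2.40), and Zfpm1 changes sign (0.87 and -0.53).

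For every member but Gata6 the replicate number took a larger part of the variation than the fraction did, by most for Gata1, Gata5, Zfpm1 and Zfpm2. The sum of squares of log2(CPM + 0.5) over the 6 libraries was divided into replicate number, with 2 degrees of freedom, fraction, with 1, and a rest with 2. With more degrees of freedom, the replicate number takes a larger part than the fraction even of variation without a pattern. The replicate number took 95.4% for Zfpm2, 95.3% for Gata5, 84% for Gata1 and 77.7% for Zfpm1, beside a median of 56% over all tested genes, and 23.8% of those genes had 80% or more. Gata2 (47.5%), Gata3 (50.4%), Gata6 (32.2%) and Gata4 (32.4%) were below that median. The fraction took 49.4% for Gata6, 24.2% for Gata2 and 23.2% for Gata3, against a median of 11%, and between 0.157 and 15.3% for the other 5 members. The share of alignments outside genes also went with the replicate number, from 7.09% to 35.6%, and its part in the members' pattern was not tested.

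**Figure D4:**
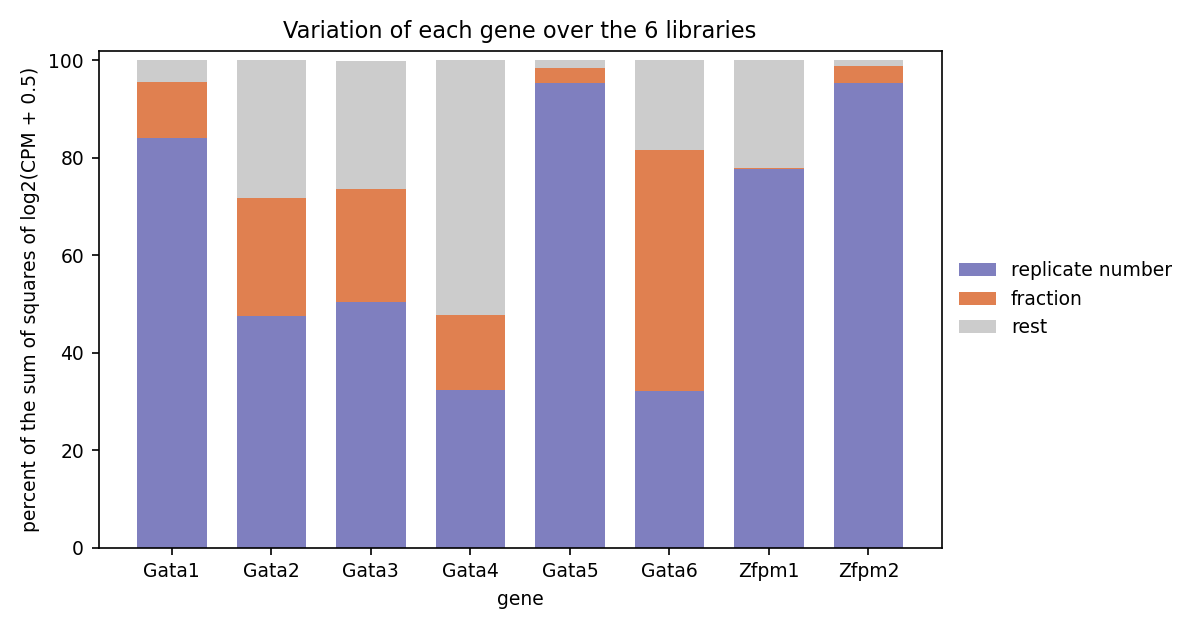
Sum of squares of log2(CPM + 0.5) over the 6 libraries divided into replicate number, fraction and rest, in percent, for each gene. The replicate number takes over 90% for Gata5 and Zfpm2, and Gata6 is the gene with the largest part for the fraction (49.4%).

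The same layout appears when members are set against each other and against all genes. Over 6 libraries, which share replicate numbers and depth, Pearson's r of log2(CPM + 0.5) was 0.93 between Gata5 and Zfpm2, 0.81 between Gata2 and Zfpm1, 0.78 between Gata3 and Gata6, -0.73 between Gata2 and Gata3 and 0.29 between Gata1 and Gata2. These values are descriptions of 6 points. With Zfpm2, 516 of the tested genes had an r of 0.9 or more, led by Pelp1, Msl2 and Fads2 (0.994 to 0.996), and with Gata5 498 did, led by Tmem86a, Ghdc and Igf2 (0.994 each). Zfpm1 had 349 such genes, led by Cpeb3, Cep131 and Golph3 (0.989 to 0.997). Fewer genes were as close to the others. Gata2 had 94, led by Zfp106, Dtx3l and Ubtf (0.984 to 0.996), Gata1 124, led by Dock5, Pnp2 and 4931428F04Rik (0.979 to 0.983), and Gata3 86, led by Fzd2, S100a6 and Yaf2 (0.984 to 0.986). For Gata6 there were 43, led by Igfbp5, Igf2r and Scly (0.971 to 0.983).

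Differences between 2 members within a library depend little on how libraries are scaled where both genes are well counted. Of these, 5 were compared between the fractions. Those that subtract Gata2 are not independent of the sort, because Gata2 carries the reporter. The balance of GATA1 and GATA2 is of interest because one replaces the other during red cell formation. Gata1 minus Gata2 was -1.75, 0.65 and -0.91 in Vmed and -0.76, 0.07 and -1.87 in Vhigh on the log2 scale of CPM + 0.5. The 2 fractions covered the same range, with a difference of -0.19 (exact permutation p = 0.9). Gata3 minus Gata2 was 0.69, 0.09 and -0.81 in Vmed and 0.38, -1.40 and -5.10 in Vhigh, with a difference of -2.03 between the fractions. The fractions overlapped, the exact permutation p was 0.3, and without Vhigh replicate 3 the difference was -0.50.

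The cofactor Zfpm1 lay below Gata2 and below Gata1 in all 6 libraries. In the 5 libraries with a Zfpm1 count, the log2 differences ran from -5.15 to -3.25 against Gata2 and from -5.21 to -1.37 against Gata1. In Vhigh replicate 1, with no Zfpm1 count, Gata2 was 139-fold and Gata1 81.7-fold above the limit of 3 counts. That library also had the fewest genes with a count. The means that follow hold that library at the added 0.5 CPM. The distance of Zfpm1 to Gata2 averaged -4.06 ± 0.58 in Vmed and -4.90 ± 1.55 in Vhigh (SD, n = 3, exact permutation p = 0.5), and to Gata1 -3.39 ± 1.31 and -4.05 ± 2.32 (exact permutation p = 0.8). Zfpm2 minus Zfpm1 was 1.39 ± 1.98 in Vmed and 2.24 ± 0.44 in Vhigh (SD, n = 3, exact permutation p = 0.8). Zfpm2 exceeded Zfpm1 on this scale in every library but Vmed replicate 1. With 0.1 or 2 CPM added in place of 0.5, the differences between fractions moved from -0.85 to -1.46 or -0.55 for Zfpm1 minus Gata2, from -0.66 to -1.28 or -0.35 for Zfpm1 minus Gata1 and from 0.85 to 1.60 or 0.35 for Zfpm2 minus Zfpm1. Without Vhigh replicate 1 they were -0.14, 0.09 and 0.72. Adjusted over the 5 differences, each exact permutation p was 0.9.

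Genes whose products work with GATA factors and FOG proteins were read from the same fit. Of all tested genes, 0% were called, and the median log2 fold change was -0.02. The other genes with a GATA-type zinc finger, among them the NuRD subunits, had 0 of 9 members called, with 6 estimates above 0 and 3 below and a median log2 fold change of 0.22. The corepressors that FOG proteins recruit, NuRD and CtBP, had 0 of 15 called, with 8 above and 7 below 0 and a median of 0.02. Their transcripts were plentiful beside Zfpm1. Rbbp4, a histone-binding subunit of NuRD, had between 434 and 806 CPM, and Mta2, another subunit, between 44 and 443 CPM. Gatad2a, a NuRD subunit with a GATA-type finger, had 60.5, 115 and 93.1 CPM in Vmed and 309, 211 and 156 CPM in Vhigh. Its fractions did not overlap, with Vhigh higher, as was the case for 4.15% of all tested genes. The fit gave 1.33 on the log2 scale (standard error 0.52), which was not called.

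GATA partner factors of blood, such as the LMO2, TAL1 and RUNX1 complexes, had 0 of 18 genes called, with 13 estimates above 0 and 5 below and a median log2 fold change of 0.55. The ETS factor gene Fli1, a partner in the stem cell complex, had between 181 and 358 CPM in Vmed and between 260 and 556 CPM in Vhigh. Genes tied to GATA2 in stem and progenitor cells had 0 of 15 called, with 12 above 0 and 3 below and a median of 1.08. Kit, the receptor used in the sort, had 64.1, 208 and 59.1 CPM in Vmed and 254, 490 and 521 CPM in Vhigh. Cd34 had 304, 611 and 739 CPM against 435, 971 and 1501 CPM. Meis1 had 421, 266 and 93.2 CPM against 265, 304 and 139 CPM, and its estimate was below 0 (-0.19). The Kit values of the fractions did not overlap, beside 4.15% of all tested genes in that direction, and those of Cd34 and Meis1 did.

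Genes that GATA1 activates late in its lineages did not share one direction. The erythroid genes had 0 of 12 called, with 6 estimates above 0 and 6 below and a median log2 fold change of 0.04. Embryonic beta-like globin Hbb-y was at 281, 133 and 83.6 CPM in Vmed and 101, 22 and 34.2 CPM in Vhigh, and Hbb-bh1 was between 54.3 and 241 CPM over all libraries. The adult globin genes Hba-a1, Hba-a2, Hbb-bt and Hbb-bs, which are near-identical copies in pairs, were at 0 in all 6 libraries. Tfrc went the other way from Hbb-y, with 34.1, 67.7 and 99.3 CPM in Vmed and 128, 118 and 125 CPM in Vhigh. Its fractions did not overlap, beside 4.15% of all tested genes with Vhigh higher. The megakaryocyte genes had 0 of 13 called, with 5 above 0 and 8 below and a median of -1.63. Platelet factor gene Pf4 had 477, 381 and 150 CPM in Vmed and 132, 18.2 and 13 CPM in Vhigh. Its fractions did not overlap, with Vhigh lower, as was the case for 4.71% of all tested genes. Those of Vwf (55.3 to 243 CPM in Vmed, 88.3 to 149 CPM in Vhigh) and Itgb3 (24.4 to 177 and 0.281 to 186 CPM) did. The mast cell genes, another GATA2 lineage, had 0 of 4 called, with 1 estimate above 0 and 3 below and a median of -0.60. Cpa3, a mast cell protease, was the 1 above 0. It had 11.1, 3.62 and 0 CPM in Vmed and 137, 23.8 and 11.1 CPM in Vhigh, which just overlapped. Slc18a2 had 116, 181 and 106 CPM in Vmed and 51.7, 197 and 130 CPM in Vhigh. Hdc had 47.9, 33.7 and 27.7 CPM against 0.469, 27.8 and 28.3 CPM, and the fractions overlapped for both genes.

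Since the libraries are bulk samples, a lower value can come from fewer cells of a type or from less RNA per cell, and these cannot be told apart. Genes of other tissues that use GATA factors were therefore summed per library. For GATA4, GATA5 and GATA6 these were genes of heart, gonad and visceral mesoderm, whose summed expression was 457, 293 and 328 CPM in Vmed and 101, 112 and 61.7 CPM in Vhigh. Of the 11 tested, 0 were called, and all 11 estimates were below 0, with a median log2 fold change of -2.53. Hand1, a factor of heart and lateral mesoderm, had 45.3, 69.3 and 57.7 CPM in Vmed and 0.938, 15.7 and 6.98 CPM in Vhigh, and Bmp4 had 49.2, 80.5 and 136 CPM against 65.8, 25.8 and 46.4 CPM. Tcf21, a factor of visceral mesoderm, was at 145 CPM in Vmed replicate 1, the library that held nearly all Gata4 counts, and at 0.188 to 19.2 CPM elsewhere. The cardiac factor gene Nkx2-5 was at 0 in all 6 libraries.

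Mesenchyme markers summed to between 2173 and 4634 CPM in Vmed and between 277 and 652 CPM in Vhigh (0 of 10 called, 1 estimate above 0 and 9 below, median log2 fold change -2.75). Macrophage markers summed to between 1029 and 1826 and between 145 and 538 CPM (0 of 11 called, all 11 estimates below 0, median -2.20). Both sums were lower in every Vhigh library than in any Vmed library, as Gata6 was. Within the fractions these 2 sums did not follow the order of Gata6, which was highest in replicate 2 of each. The sum for heart, gonad and visceral mesoderm had the order of Gata6 within Vhigh but not within Vmed. Endothelial markers had 0 of 13 called, with 12 estimates below 0 and a median of -0.78, and hematopoietic markers 0 of 12 called, with 12 above 0 and a median of 1.41. The part of these cells in the Gata6 values was not tested. Endoderm genes had 0 of 5 called, 2 estimates above 0 and 3 below and a median of -0.30.

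The AGM region also holds sympathetic neurons, which use GATA2 and GATA3, and nephric duct, which uses GATA3. Sympathetic neuron genes summed to 703, 148 and 109 CPM in Vmed and 240, 143 and 48 CPM in Vhigh, with 0 of 6 called, 5 estimates below 0 and a median log2 fold change of -0.97. The highest sum fell in the library with the highest Gata3 (Vmed replicate 1) and the lowest in the library with the lowest Gata3 (Vhigh replicate 3). Isl1, a factor shared by many neuron types and heart progenitors, was its largest part in Vmed replicate 1, with 421 CPM. In Vhigh replicate 1, which had the second highest Gata3 (51.2 CPM), the sum was the second highest as well, with Isl1 at 162 CPM, Stmn2, a general neuron gene, at 55.9 CPM and Ddc, an enzyme of catecholamine synthesis, at 16 CPM. Th and Dbh, enzymes of the same synthesis, were picked out after their values were seen. Th had 66.1, 0 and 0 CPM in Vmed and 0, 0 and 3.57 CPM in Vhigh. Dbh had 27.5, 0 and 22.2 CPM in Vmed and 0, 0.184 and 0.0831 CPM in Vhigh. Their values of 0 were thus not particular to Vhigh replicate 1. The part of such neurons in the Gata3 values was not tested. Nephric duct genes summed to 37.8, 77.6 and 39.1 CPM in Vmed and 61.5, 23 and 13.6 CPM in Vhigh (0 of 5 called, 4 estimates below 0, median -1.91). In Vhigh replicate 1 the whole sum was Sall1, and the duct genes Pax2, Pax8, Ret, Lhx1 and Cdh16, also picked out after their values were seen, were at 0. Several of these were low everywhere. Lhx1 had counts in Vmed replicate 3 alone, and Pax8 and Cdh16 reached at most 2.83 and 1.33 CPM in any library. The part of duct cells was not tested either.

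**Figure D5:**
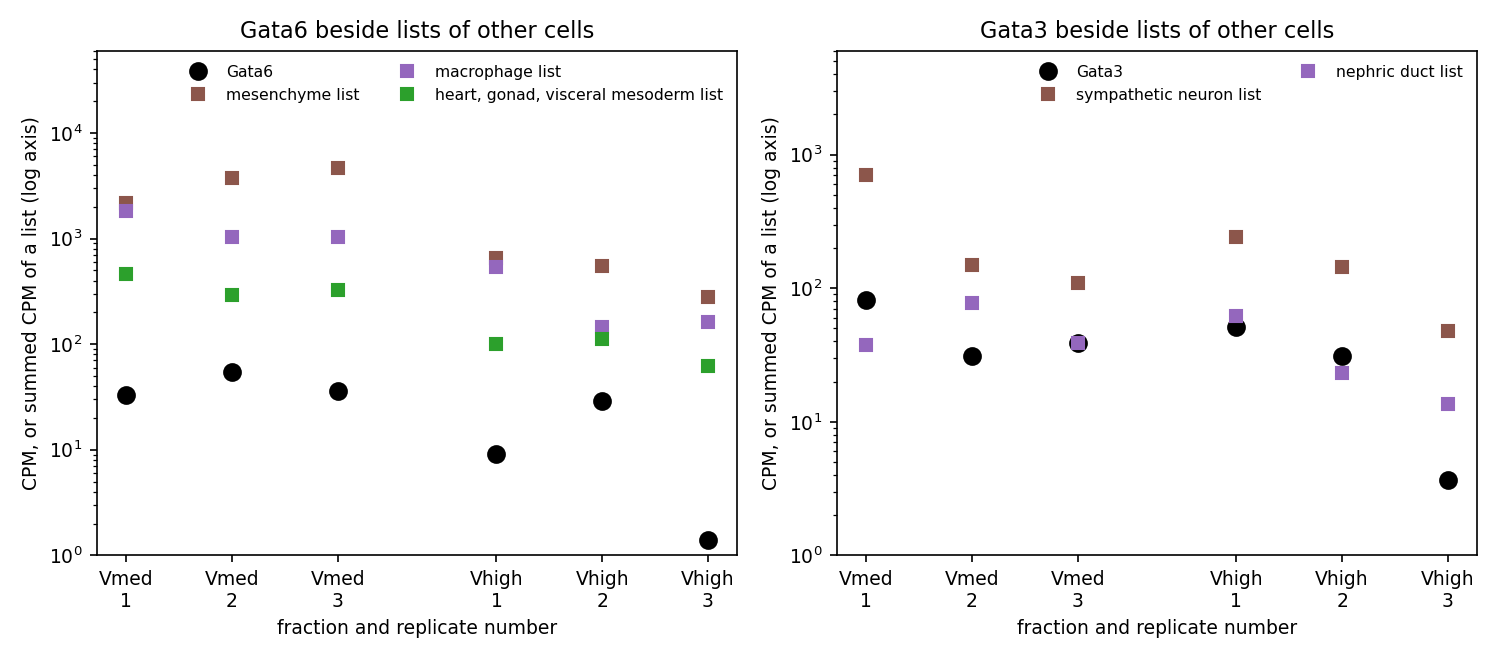
Expression of Gata6 (left) and Gata3 (right) in CPM and the summed CPM of lists of other cells, on a log axis, in each Vmed and Vhigh library by replicate number. Gata6 and the mesenchyme, macrophage and heart, gonad and visceral mesoderm sums are each lower in all Vhigh libraries than in any Vmed library, and Gata3 and the sympathetic neuron sum are both lowest in Vhigh replicate 3 (3.66 and 48 CPM).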

How the data were processed

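Sequencing reads of the 6 libraries had been aligned to GRCm38/mm10, and the submitters' processing notes name TopHat, Bowtie 1.1.2 and HTSeq. The authors deposited raw read counts per gene, 1 file a library, without normalization. The annotation and strand setting of the counting are not given in the sources used here, so reads of overlapping genes on opposite strands cannot be told apart. Lines that name no gene (alignments outside genes, ambiguous or not unique, the last 41.3 to 57.7% of alignments) were left out of all totals and tests.

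CPM were counts divided by each library's gene total (8296831 to 12035206). Exact 95% Poisson intervals and the limit of 3 counts cover counting error only. For the test, genes were kept by filterByExpr in edgeR 4.0.16 (12688 of 24062), scaled by TMM and fitted by the quasi-likelihood method with the fraction as the single term and Benjamini-Hochberg adjustment at 0.05. Single values were compared by exact two-sided permutation of log2(CPM + 0.5) over all 20 arrangements. The procedure was tested on simulated data. Same-numbered libraries deviated together (r of 0.21, 0.21 and 0.39 for replicates 1, 2 and 3, -0.29 to -0.01 for other pairs), so the replicate numbers of the labels were used as a block in an alternative fit. Further alternatives were RLE scaling, gene totals alone, no filter, the likelihood ratio test, DESeq2 1.42.0, other pseudocounts, thinning, and each library left out.

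All 8 members were named. Of each other list the 3 genes with the highest mean CPM were eligible to be named, and for each tested member the 3 genes with the highest r. The members and lists were chosen with earlier results of these data known. Gene models came from GENCODE M21 and promoter windows from RefSeq (GRCm38.p6). One gene of the lists is not reported here by name.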

Additional observations from a re-analysis of the deposited data

How the results depend on the processing

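Of 184 alternative values, 168 kept their direction and side of the threshold. Some could hardly differ, such as the mean of same-numbered differences and the fold changes of the likelihood ratio test, so this count is no measure of robustness. No member was called under any alternative. Among all genes, where 0 were called, 37 were called without the filter, 21 by the likelihood ratio test, 51 by DESeq2 and 74 by the likelihood ratio test with a replicate block, while the quasi-likelihood test with the replicate block called 0, and 0 to 1 were called with single libraries left out. The replicate block turned the log2 fold change of Zfpm1 (0.87) to -0.53, and to -0.52 with the likelihood ratio test, and reversed no other member. The cause was not tested.

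With single libraries left out, the log2 fold change ran from -0.02 to 0.85 for Gata1, from -2.41 to 0.49 for Gata5, from -1.81 to 1.93 for Zfpm1 and from -1.18 to 2.32 for Zfpm2. Within libraries, the difference between fractions ran from -0.73 to 0.47 for Gata1 minus Gata2, from -2.00 to 0.09 for Zfpm1 minus Gata1 and from -0.29 to 1.47 for Zfpm2 minus Zfpm1. Gata2 (0.24 to 1.11), Gata3 (-1.75 to -0.27) and Gata6 (-2.80 to -1.16) kept their sign, with Gata2 lowest without Vhigh replicate 3. With 3 libraries a fraction and a biological coefficient of variation of 1.16, the spread between libraries limited every comparison, and counting error as well limited Gata4, Gata5 and Zfpm1.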
